A study of Mus musculus with 6 samples.

Results

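The miR-181 family was measured by 3 probes of the NanoString panel, chosen by name as the probes for the guide strand of mmu-miR-181a, mmu-miR-181b, mmu-miR-181c and mmu-miR-181d, the strand that is loaded to silence targets. The panel held 566 probes for mouse miRNAs. MiR-181a (MIMAT0000210) and miR-181c (MIMAT0000674) had a probe each, whereas miR-181b and miR-181d were read by a single joint probe (MIMAT0000673), so that their levels could not be separated, and 0 probes were directed at the other arms of the miR-181 hairpins. RNA was taken from fresh frozen livers of 3 Apcfl/fl mice, homozygous for a floxed and hypomorphic Apc allele and bearing hepatocarcinoma (HCC) in which the Wnt/β-catenin pathway is active, and from normal livers of 3 Apc+/+ mice, all on a C57Bl/6 background. The sources used here name no Cre driver, treatment or age for these livers. RNA came from tissue and not from sorted cells, so fewer cells of a type and less RNA per cell cannot be told apart.

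MiRNAs bind messenger RNAs mainly through the seed, a short stretch near their 5′ end, and lower the output of the bound messages. In T cells miR-181a is known for setting the sensitivity of the antigen receptor. In liver cancer the family has been linked to tumour cells with progenitor features and to the Wnt/β-catenin pathway, the pathway that loss of Apc releases. The comparison addressed whether these miRNAs differed between Wnt-dependent HCC and normal liver.

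The sequences are shown because the 4 guides carry the same seed (bases 2 to 8, in capitals) and differ only outside it. They are RefSeq sequences of assembly GRCm38.p6, matched by name to the 5p arm for 4 of the 4 members, written 5′ to 3′.
miR-181a: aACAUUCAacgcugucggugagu
miR-181b: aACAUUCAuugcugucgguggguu
miR-181c: aACAUUCAaccugucggugagu
miR-181d: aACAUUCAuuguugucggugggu

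Of 1679 mature mouse miRNA names in that table, 0 others had the seed ACAUUCA. Counting positions from the 5′ end of the guide, miR-181b and miR-181d differed over 23 shared bases by a single substitution, C12U, with miR-181b given first, and these are the members read by the joint probe. MiR-181a differed from miR-181b by A9U, C10U and A21G over 23 bases. MiR-181a and miR-181c were 1 edit apart. Whether a probe also captured a near-identical member was not tested.

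The members come from 6 genes in 3 pairs. Mir181a-1 and Mir181b-1 lie on chromosome 1 (GRCm38.p6, 137966455 to 137966541 and 137966639 to 137966718, plus strand), 97 bases apart and within the span of no other gene in the RefSeq table. Mir181a-2 and Mir181b-2 lie on chromosome 2 (38852735 to 38852810 and 38853830 to 38853918, plus strand), 1019 bases apart, inside the spans of Nr6a1, which codes for an orphan nuclear receptor, and of the non-coding gene Nr6a1os. Mir181c and Mir181d lie on chromosome 8 (84178873 to 84178961 and 84178716 to 84178787, minus strand), 85 bases apart. Exons and introns were not given in the table used. The hairpins of Mir181a-1 and Mir181a-2 are printed with the guide in capitals, because 2 different precursors yield an identical miR-181a that the probe counts as 1 product.
Mir181a-1: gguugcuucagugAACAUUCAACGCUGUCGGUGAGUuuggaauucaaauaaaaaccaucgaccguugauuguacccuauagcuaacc
Mir181a-2: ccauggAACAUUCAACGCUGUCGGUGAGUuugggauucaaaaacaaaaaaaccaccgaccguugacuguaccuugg

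The assay counts captured molecules without amplification, and between 82942 and 133331 counts fell on mouse miRNAs in each liver. Background was set from the 33 probes for viral miRNAs on the same panel, as their mean plus 2 SD, which gave a limit between 13.1 and 27.8 counts per liver. All 5 hepatocyte miRNAs listed (miR-122, miR-192, miR-194, miR-148a and miR-101a) lay above this limit in all 6 livers, whereas 4 of 5 brain and muscle miRNAs lay under it in all of them. The exception was miR-1, above the limit in 1 liver.

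MiR-181a was the only member above background throughout. The 3 Apcfl/fl livers gave deposited counts of 96, 54 and 141, against 39, 61 and 33 for the Apc+/+ livers. Each value was above the viral probe limit of its liver, between 1.95-fold and 7.35-fold of it, and 0 of the 33 viral probes reached it in any liver. By mean count miR-181a ranked 96 of the 566 mouse miRNAs. These counts are small. The 95% Poisson interval, which covers counting error only and is too narrow where a constant had been subtracted from a probe before deposit, ran from 22.7 to 46.3 around the lowest value and from 119 to 166 around the highest.

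The probe shared by miR-181b and miR-181d was not told from background. Its counts were 15.67, 1.67 and 12.67 in Apcfl/fl liver, against 3.67, 7.67 and 6.67 in Apc+/+ liver. All 6 values were under the viral probe limit, and between 7 and 26 of the 33 viral probes counted as many or more in the same liver. The livers of Apcfl/fl mice held both the highest and the lowest value.

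MiR-181c was close to background as well. Its counts were 12.67, 1.67 and 10.67 in Apcfl/fl liver, against 9.67, 12.67 and 15.67 in Apc+/+ liver. The value of Apc+/+ liver 3 passed its limit of 14.3 counts, and the other 5 values did not. In Apcfl/fl liver 2 the miR-181c probe and the joint probe both stood at 1.67 counts. In that liver the mean of the viral probes was 4.91 counts, the lowest of the 6 livers (5.66 to 11.3 in the others), and the part of this background in the low counts was not tested.

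**Figure D1:**
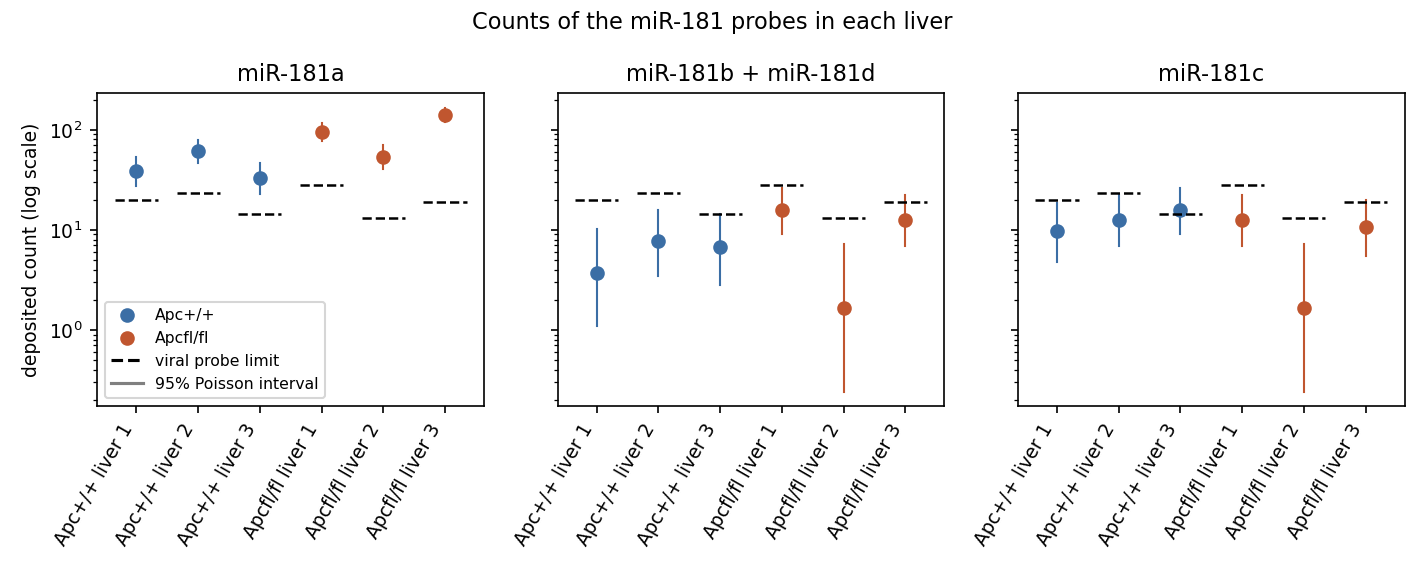
Deposited counts (log scale) of the 3 miR-181 probes in each Apc+/+ and Apcfl/fl liver, with 95% Poisson intervals of the deposited values as vertical lines and the viral probe limit of each liver as a dashed line. MiR-181a was above the limit in all 6 livers, miR-181c in 1 and the joint probe of miR-181b and miR-181d in 0.

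MiR-181a was higher on average in Apcfl/fl liver, but the livers of the 2 genotypes overlapped and the difference was not past the threshold. After scaling with trimmed mean of M values (TMM), its normalized counts were 86.4, 57.2 and 92.6 in Apcfl/fl liver, against 49.2, 74.9 and 40.5 in Apc+/+ liver. Apcfl/fl livers 1 and 3 lay above the 3 Apc+/+ livers, and Apcfl/fl liver 2 lay under Apc+/+ liver 2. The Apcfl/fl mean was 78.7 ± 18.9 (SD, n = 3) and the Apc+/+ mean 54.9 ± 17.9 (SD, n = 3). The fitted difference (Apcfl/fl over Apc+/+) was 0.52 on the log2 scale, with a standard error of 0.39 and a 95% confidence interval from -0.39 to 1.43. As a fold change this is 1.43 (0.763 to 2.70), with an adjusted p-value of 0.42 in edgeR's quasi-likelihood test (0.22 before adjustment). The two-sided exact permutation test gave p = 0.2, where 0.1 is the smallest p that 3 mice against 3 allow. The interval spans both no difference and a difference of over 2-fold.

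The other miRNAs of the panel give the measure for this value. A mean count of at least 20 was reached by 174 mouse miRNAs, which were tested, and 0 of them (0%) had an adjusted p-value under 0.05 in edgeR's test, with a smallest adjusted p-value of 0.0559. DESeq2 gave 9 lower and 20 higher miRNAs at that threshold, and miR-181a was not among them (adjusted p = 0.44). Before adjustment, 24 miRNAs (13.8%) were higher and 19 (10.9%) lower with a p-value under 0.05, and the 1 member tested was in neither group. Of the 174, 39 averaged under 20 counts in 1 genotype and reached the minimum through the other, among them 11 of the 24 and 1 of the 19. Among the remaining 135, 13 (9.63%) were higher and 18 (13.3%) lower. The normalized counts of the 2 genotypes did not overlap in 59 of the 174 (33.9%), and miR-181a was not among these either. A log2 fold change at least as far from 0 as that of miR-181a was found in 88 of the 174 miRNAs (50.6%), and by p-value it ranked 89 of the 174. The standard error of miR-181a (0.39) was below the median of all tested miRNAs (0.44).

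**Figure D2:**
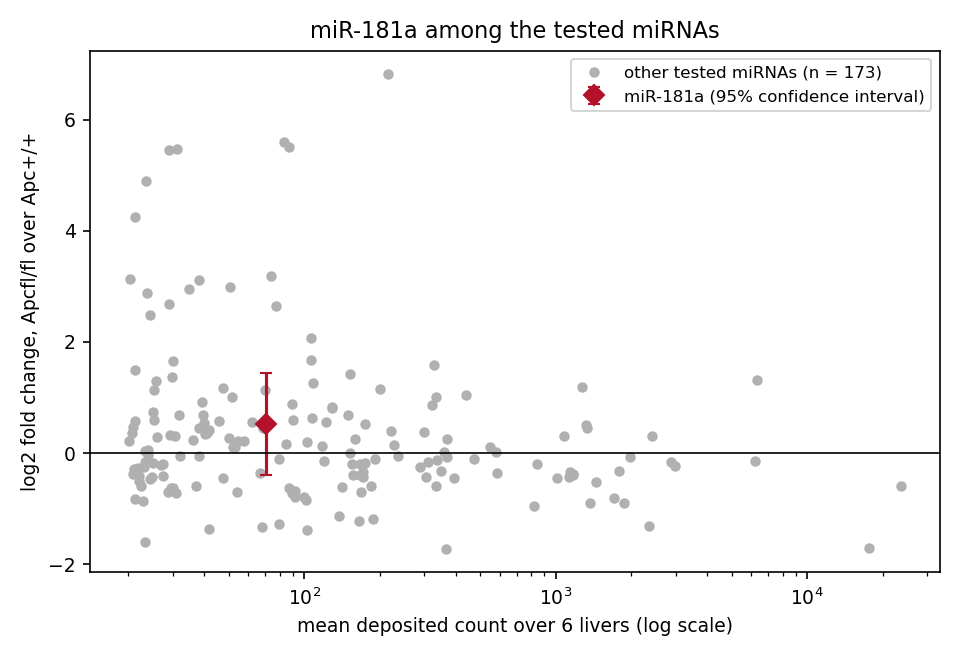
Log2 fold change (Apcfl/fl over Apc+/+) of the 174 tested miRNAs against their mean deposited count over the 6 livers (log scale), 1 point per miRNA. MiR-181a stands at 0.52 with its 95% confidence interval across 0, and 88 of the 174 miRNAs are at least as far from 0.

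The direction of miR-181a held and its size varied with the processing. Under 15 alternatives the log2 fold change was above 0 in 15, between 0.37 and 0.97, and its adjusted p-value was under 0.05 in 0 of them (0.23 to 0.63). Scaling to the total count gave 0.92, but it also raised the median of all tested miRNAs from 0.01 to 0.45. Relative to this median miR-181a was at 0.51 with TMM and at 0.46 with the total count, and over the 15 alternatives it ran from 0.24, without Apc+/+ liver 3, to 1.05, with no filter on low counts. Without Apcfl/fl liver 2, the lowest of its genotype, the value was 0.76 (adjusted p = 0.26), and without Apc+/+ liver 2, the highest of its genotype, it was 0.94 (adjusted p = 0.39). The lowest value, 0.37 (adjusted p = 0.63), was that without Apcfl/fl liver 3, the highest of its genotype.

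**Figure D3:**
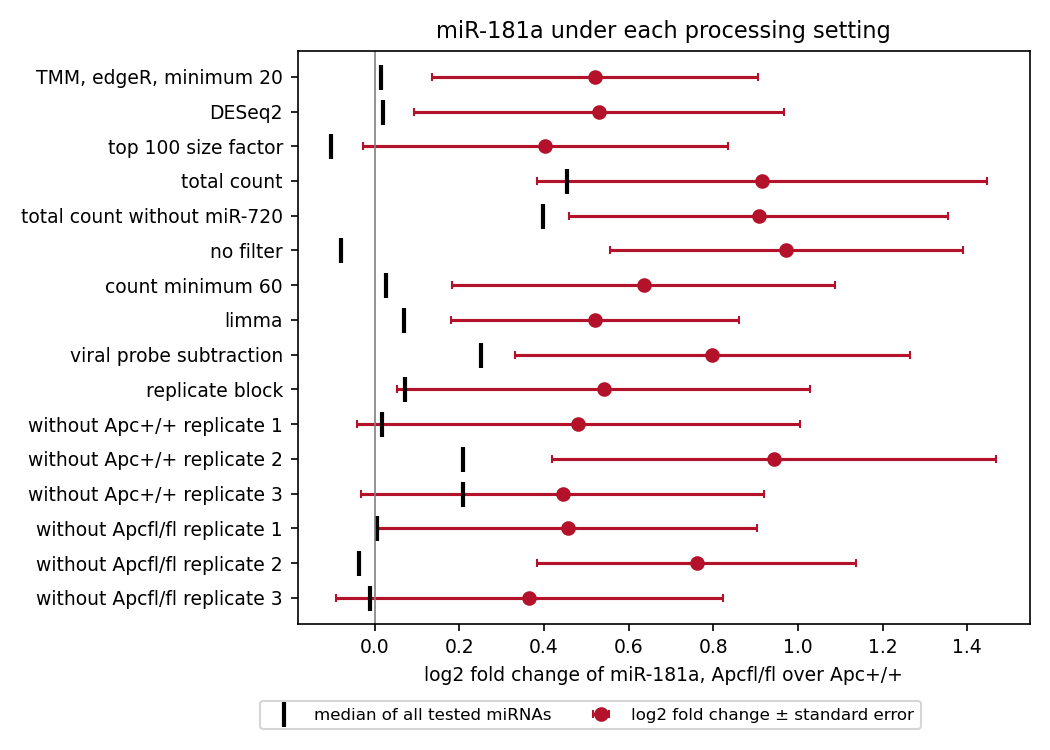
Log2 fold change of miR-181a (Apcfl/fl over Apc+/+) under each processing setting, with bars for the standard error and black marks for the median of all tested miRNAs in the same fit. The points lie between 0.37 and 0.97, and the median moves up to 0.45 with the total count.

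The remaining members were under the count minimum and are described by their levels. The joint probe of miR-181b and miR-181d averaged 8.35 ± 6.14 normalized counts (SD, n = 3) in Apcfl/fl liver, against 7.82 ± 2.48 (SD, n = 3) in Apc+/+ liver (p = 0.8 in a two-sided exact permutation test). MiR-181c averaged 7.01 ± 4.79 (SD, n = 3) in Apcfl/fl liver, against 16.1 ± 3.52 (SD, n = 3) in Apc+/+ liver, and each Apcfl/fl liver was below each Apc+/+ liver (p = 0.1 in a two-sided exact permutation test, the smallest possible). Such an order was common among the 392 miRNAs under the count minimum, of which 86 (21.9%) were lower in each Apcfl/fl liver and 3 (0.765%) higher, and the 4 probes at the floor of 1 in all livers (100%) were among the lower ones by scaling alone. For miR-181c too the separation depended on the scaling, since miR-181c overlapped in the deposited counts and also as a share of the mouse miRNA counts, with 0.0131%, 0.00162% and 0.00805% in Apcfl/fl liver against 0.0117%, 0.0136% and 0.0118% in Apc+/+ liver.

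Summed over the 3 probes, the family took 0.129%, 0.0557% and 0.124% of the mouse miRNA counts of the Apcfl/fl livers, against 0.0631%, 0.0874% and 0.0415% for the Apc+/+ livers. The means were 0.103% ± 0.041 (SD, n = 3) and 0.064% ± 0.023 (SD, n = 3), with Apcfl/fl liver 2 inside the Apc+/+ range. MiR-181a made up between 59.6% and 94.2% of the family's counts, but the other probes were at or near background, so these shares give no proportion between members. The 94.2% was that of Apcfl/fl liver 2, where both other probes stood at 1.67 counts, under the viral probe mean of 4.91. Only 1 probe passed the limit in at least 3 livers, so 0 ratios between members were tested.

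Among the tested miRNAs outside the family, miR-322, miR-423-5p and miR-106b had the profiles most like that of miR-181a, with Pearson correlations of 0.88, 0.88 and 0.86 between normalized log2 levels over the same 6 livers. The correlation is a description, and livers, scaling and low counts are shared. MiR-322 had normalized counts of 66.6, 19.1 and 65 in Apcfl/fl liver, against 30.3, 49.1 and 22.1 in Apc+/+ liver. MiR-423-5p had 72.9, 55.1 and 63.7 against 34.1, 45.4 and 16.0, and its genotypes did not overlap (adjusted p = 0.23 in edgeR's test). MiR-106b, a member of the miR-106b-25 cluster in the Mcm7 gene, had 116, 73.1 and 129 against 51.7, 65.1 and 56.5, and did not overlap either (log2 fold change 0.88, adjusted p = 0.16 in the same test), as was the case for 33.9% of the tested miRNAs.

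**Figure D4:**
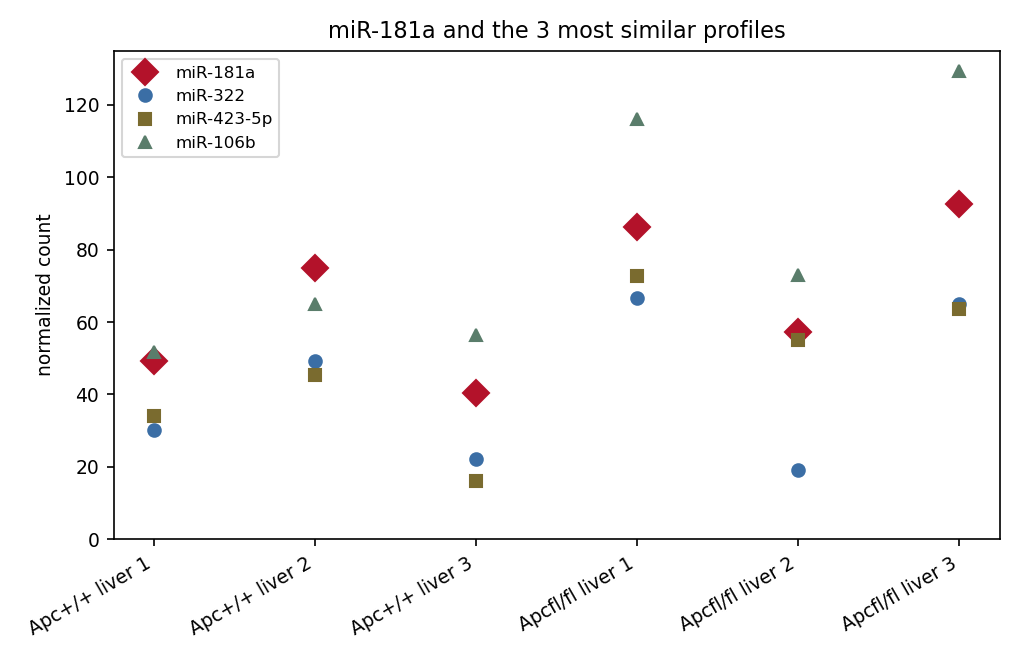
Normalized counts of miR-181a and of the 3 tested miRNAs with the most similar profile in the 3 Apc+/+ and 3 Apcfl/fl livers, 1 symbol per liver. The 3 were chosen for their likeness over these same livers, with correlations of 0.86 to 0.88.

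Other miRNAs that have been tied to β-catenin or to progenitor features of liver cancer were taken from a list of 25 names, all on the panel, 2 of them on joint probes. Of these, 16 were tested, but miR-222 and miR-429 averaged under 20 counts in Apc+/+ liver and reached the minimum only through Apcfl/fl liver. Of the other 14, 4 had a higher and 10 a lower fitted level in Apcfl/fl liver, beside 88 and 86 of all 174 tested miRNAs. The list was not split by expected direction, and some members, among them miR-122 and miR-145, are also in the cell type lists below. The median log2 fold change of the 14 was -0.18, beside 0.01 for all 174 tested miRNAs. Without Apcfl/fl liver 2 it was -0.27, beside -0.04 for the 154 miRNAs tested in that fit. None of the 16 had an adjusted p-value under 0.05 in edgeR's test (0%), and before adjustment 1 was higher and 5 were lower with a p-value under 0.05, beside 13.8% and 10.9% of all tested miRNAs (9.63% and 13.3% of those that averaged at least 20 counts in both genotypes). The higher one was miR-21, widely raised in tumours, with a log2 fold change of 1.31 (adjusted p = 0.056). Of those that were lower, the smallest p-values belonged to miR-145, a miRNA of smooth muscle and stroma, at -1.72, and to miR-122, the main hepatocyte miRNA, at -1.71 (adjusted p = 0.056 each). Without Apcfl/fl liver 2 these 3, miR-21 higher and miR-145 and miR-122 lower, had an adjusted p-value of 0.047 each in edgeR's test, where 5 (3.25%) of all 154 miRNAs tested were higher and 3 (1.95%) lower past 0.05. Over the 15 alternatives run for miR-181a, miR-21 was higher past that threshold in 9, miR-122 lower in 9 and miR-145 lower in 8. None of the 3 passed it with no filter, with limma, without any 1 of the Apc+/+ livers or without Apcfl/fl liver 1.

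Because miR-181a is abundant in lymphocytes, markers of other cells were set beside it. The leucocyte list had 6 probes, of which 5 reached the count minimum, 1 of them (miR-155) only through Apcfl/fl livers. The other 4 had a median log2 fold change of 0.40 (0.61 without Apcfl/fl liver 2), with 3 fitted higher and 1 lower. All 174 tested miRNAs had a median of 0.01, with 88 fitted higher and 86 lower. The summed normalized counts of the list without miR-155 were 346, 450.1 and 853 for Apcfl/fl liver, against 246 to 487 for Apc+/+ liver, so that only Apcfl/fl liver 3 was above the Apc+/+ range. MiR-142-5p was at the floor of 1 count throughout. The other arm, miR-142-3p, was above the viral probe limit in all 6 livers. It had 93, 70 and 283 deposited counts in Apcfl/fl liver, against 55, 128 and 74 in Apc+/+ liver. MiR-223, a myeloid miRNA, had the smallest p-value of this list (log2 fold change 1.42, adjusted p = 0.072), with 135, 147 and 459 deposited counts in Apcfl/fl liver, against 52, 60 and 62 in Apc+/+ liver. MiR-155, induced in activated leucocytes, was at 1 in the 3 Apc+/+ livers and at 1, 78.33 and 58.33 in the Apcfl/fl livers, and no test is given for it because its high livers alone carried it past the minimum. MiR-150, a lymphocyte miRNA, overlapped between the genotypes (40.33, 70.33 and 169.33 counts for Apcfl/fl against 27.33, 110.33 and 57.33 for Apc+/+ liver). The part of leucocytes in the level of miR-181a was not tested.

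Of all 174 tested miRNAs, 88 were fitted higher and 86 lower in Apcfl/fl liver, with a median log2 fold change of 0.01. The hepatocyte list was fitted lower in 5 of 5 members, with a median log2 fold change of -0.80. Its summed normalized counts lay between 9416 and 15690 for Apcfl/fl liver, against 27980 to 43730 for Apc+/+ liver. MiR-122 was the largest part of these sums, with means of 9157 in Apcfl/fl and 29870 in Apc+/+ liver. The smallest p-values of the list were those of miR-148a, at -1.31, and miR-122 (adjusted p = 0.056 each in edgeR's test), followed by miR-194 at -0.52 (adjusted p = 0.15). The mesenchymal list (4 of 5 tested) was fitted lower in 4, with a median of -0.92. Both arms of miR-199a were among these 4. The list was led by miR-145 and then miR-143 at -1.13 (adjusted p = 0.087 in edgeR's test). Its sums lay between 322 and 725 for Apcfl/fl liver, against 893.5 to 1317 for Apc+/+ liver. The endothelial list held only miR-126-3p and miR-126-5p, arms of the same hairpin and so not independent markers. Both were fitted lower (median -0.34), with sums of 2764 to 3553 for Apcfl/fl against 3585 to 3808 for Apc+/+ liver. The erythroid list was fitted higher in 3 of 3 (median 0.53), with a sum of 4562 normalized counts in Apcfl/fl liver 2, against 796 to 1404 elsewhere, and without that liver its median was -0.39. Of the biliary and epithelial list, miR-200a and miR-200b averaged at least 20 counts in both genotypes, and both were fitted higher (median 0.33), with sums over the list without miR-429 of 60.3, 153.6 and 68.9 for Apcfl/fl against 63.1 to 114 for Apc+/+ liver, and 2 of its 5 probes were under the limit in all livers. Without Apcfl/fl liver 2 the median of the same 2 was -0.27. None of the members of these lists had an adjusted p-value under 0.05 in edgeR's test with all 6 livers (0%). Without Apcfl/fl liver 2, miR-122 and miR-148a of the hepatocyte list and miR-145 of the mesenchymal list were lower past that threshold (adjusted p = 0.047 each), the 3 lower calls of that fit, and the other lists had 0. Over the same 15 alternatives miR-148a was lower past the threshold in 8, miR-143 in 2, and miR-223 higher in 5. The part of these cells in the level of miR-181a was not tested.

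**Figure D5:**
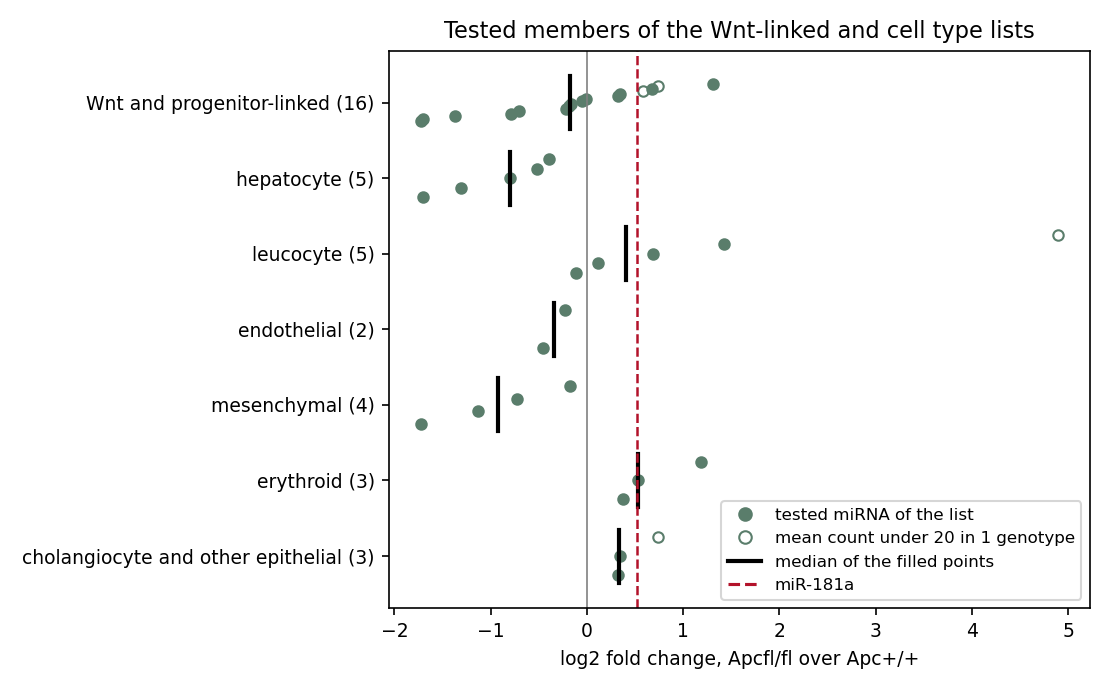
Log2 fold changes (Apcfl/fl over Apc+/+) of the tested miRNAs of the Wnt-linked list and of each cell type list, 1 point per miRNA, with the median of the filled points in black and miR-181a as a dashed line. Open points (miR-155, miR-222 and miR-429) averaged under 20 counts in Apc+/+ liver and are left out of the medians. The medians run from -0.92 in the mesenchymal to 0.53 in the erythroid list, and miR-181a is at 0.52.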

How the data were processed

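The NanoString profiles of 3 Apcfl/fl and 3 Apc+/+ livers were analysed, grouped and numbered by sample title. The values deposited by the authors are estimated counts, 1 per probe and liver, without scaling between livers. In 584 of 584 probes with at least 2 values above 1, these values shared their decimal part (to 2 decimals), so a constant per probe had been subtracted, and 446 of 3594 values stood at a floor of 1. The software for these steps was not given in the sources used here. Columns without a sample numbered 0.

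Counts were rounded, and the 174 mouse miRNAs that reached a mean of 20 counts were compared in edgeR 4.0.16 (TMM, quasi-likelihood test, Benjamini-Hochberg adjustment, all 6 livers, no block) in R 4.3.3. Log2 values for permutation tests and correlations used a pseudocount of 1. TMM factors ran from 0.655 to 1.25. Viral probes entered neither library sizes nor tests. The depth of 82942 to 133331 counts per liver gave miR-181a 33 to 141 counts. Replicate livers differed by a chi-square of 17.2 to 89.1 per degree of freedom, where sampling noise gives 1, and none was a duplicate. The procedure was tested on simulated data.

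The planned text named the family, other arms of its hairpins, up to 3 members of each list with an unadjusted p-value under 0.05, and the 3 miRNAs most correlated with miR-181a. Members and lists were chosen with earlier results of these data known, and lists came from general knowledge. Alternatives were DESeq2 1.42.0, limma 3.58.1 (prior count 2), other scalings (top 100 miRNAs, total count with and without miR-720), other count minimums (none, 60), viral probe subtraction, a replicate block, and each liver left out. Counts of called list members under these alternatives, list medians without Apcfl/fl liver 2, and counts without miRNAs that averaged under 20 counts in a genotype, were added after the data had been seen.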

Additional observations from a re-analysis of the deposited data

How the results depend on the processing

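MiR-181a kept a positive log2 fold change and missed the adjusted threshold under all 15 alternatives, with 0.52 before them. It was 0.53 with DESeq2, 0.40 with the top 100 size factor, 0.92 with the total count (0.91 when miR-720 was left out of it), 0.97 with no filter, 0.64 with the count minimum of 60, 0.52 with limma and 0.80 with viral probe subtraction, and from 0.37 to 0.94 with 1 liver left out. With no filter its unadjusted p-value was 0.043, the single alternative under 0.05, and its adjusted p-value 0.33, and there the joint probe of miR-181b and miR-181d was at 0.52 (adjusted p = 0.81) and miR-181c at -0.76 (adjusted p = 0.66). The last 2 rest on counts at or near background, and with a count minimum they could not be fitted. The probes of 3 of the 4 members were thus at or near background. The ratio between members was not run because only miR-181a passed the limit often enough. The genotype difference in the summed share of the family (0.0389 percentage points) stayed positive under 8 of 8 alternatives, from 0.0258 to 0.0625 with 1 liver left out.

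Same-numbered livers correlated at -0.07, -0.08 and 0.13 in their deviations from the mean of their genotype. No pairing by number was seen, but so few livers cannot exclude one. With the replicate block miR-181a was at 0.54 (adjusted p = 0.55), and the adjusted threshold was passed by 3 lower and 4 higher miRNAs.

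Counts over all miRNAs moved more. Past the adjusted threshold (0 lower, 0 higher), DESeq2 gave 9 and 20, the top 100 size factor 6 and 1, the total count 1 and 16, the same without miR-720 3 and 18, the count minimum of 60 gave 6 and 12, and viral probe subtraction 6 and 9. Limma and no filter left both counts at 0. With 1 liver left out the counts ranged from 0 to 8 and from 0 to 11, both highest without Apcfl/fl liver 3. At an unadjusted p-value under 0.05 (19 lower, 24 higher), the total count gave 3 and 38, the same without miR-720 4 and 41, and no filter 29 and 54 (566 miRNAs tested), while the count minimum of 60 gave 10 lower (101 tested) and viral probe subtraction 12 lower. With 1 liver left out they ranged from 8, without Apc+/+ liver 2, to 19 lower, and from 18 to 29 higher. The causes were not tested.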

Other observations

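The miR-23a, miR-27a and miR-24 genes Mir23a, Mir27a and Mir24-2 lie within 50000 bases of Mir181c and Mir181d on chromosome 8 in the RefSeq table of GRCm38.p6. They were picked for this position after the table had been seen. All 3 were above the viral probe limit in 6 of 6 livers, whereas miR-181c was above it in 1. MiR-23a had 337.5 ± 14.7 normalized counts in Apc+/+ and 403 ± 148 in Apcfl/fl liver, and miR-27a had 217 ± 30.1 and 238.5 ± 32.6 (SD, n = 3 each). MiR-24, which a gene on another chromosome also yields, had 91.6 ± 32.1 and 161 ± 61.3 (SD, n = 3 each). The genotypes overlapped in each of them, and their adjusted p-values in edgeR's test were 0.61, 0.74 and 0.24.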
